A study of Mus musculus with 6 samples.

Results

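The 38 genes described here belong to the integrated stress response, the unfolded protein response and the charging of transfer RNA. They are 10 genes of the ATF4 pathway, 3 sensors and factors of the unfolded protein response (UPR), 12 chaperones and degradation factors of the endoplasmic reticulum (ER) and 13 aminoacyl-tRNA synthetases. They were taken by name, as a list drawn up with earlier results of these data known. Each of the 38 was matched to the annotation of the same symbol, out of 14769 gene annotations with reads, and each passed the filter on low counts.

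ATF4 is a transcription factor whose protein is made when phosphorylation of the translation factor eIF2α slows translation in general, as happens under amino acid shortage or ER stress. It turns on genes of amino acid synthesis and uptake, tRNA synthetases and the stress factors Ddit3 (CHOP), Trib3 and Chac1. The UPR has further arms. IRE1 (gene Ern1) removes a short intron from Xbp1 mRNA in the cytosol so that an active factor is made, and ATF6 is cut in the Golgi to release another, and both act on the genes of ER chaperones and of ER-associated degradation (ERAD). A rise of ATF4 target genes can therefore occur with or without a rise of ER chaperones, and the genes were compared on this point.

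The cells were Mvt1, a cell line from a mammary carcinoma of FVB/N mice. Its cells were stained for CD24, a surface protein anchored in the membrane, and sorted into a CD24- and a CD24+ group, both grown as adherent cultures in the same medium with fetal bovine serum and antibiotics and with no other agent named. RNA came from 3 plates of each group, and the sources describe 1 line and no independent sorts, so SDs and p-values measure the spread between plates. The libraries held 9046025 to 25692147 mapped reads, of which 71.8% to 74.3% lay in genes, and the shallowest was CD24+ replicate 1. Values below are in CPM, the count of a gene scaled to 1 common total of gene reads (with edgeR's TMM factors), and they compare a gene between libraries but not 1 gene with another.

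Of 11125 genes tested with edgeR, 46.1% differed between the groups at an adjusted p under 0.05 (23.8% higher and 22.3% lower in CD24+ cells), and the median log2 fold change of all genes was 0.02. These shares are the background for every count that follows, and a call alone is thus common here. With each distinct sequence counted once, with an estimate from median coverage and with the replicate number as a block, 33.4%, 35.2% and 40.4% of the genes tested were called. Cd24a, the gene of the sorted marker, rose from 10.2 ± 2.79 CPM in CD24- libraries to 77.2 ± 7.31 CPM in CD24+ libraries (mean ± SD, n = 3 each). The labels call the cells mammary epithelial. Krt8 and Krt18, keratins of luminal epithelium, had reads in all 6 libraries, but Elf5 had none and Cdh1 and Epcam had 2 and 6 reads in all. The 7 luminal markers summed to 1850 to 2040 CPM in CD24- libraries and 759 to 904 CPM in CD24+ libraries, and 3 of the 3 tested fell. The 8 fibroblast markers summed to 9.36 to 16.3 CPM and 65.2 to 98.1 CPM, led by Pdgfra in the former and Pdgfrb in the latter, with Lum at 0. The 8 leukocyte markers summed to 46.7 to 80.7 CPM and 7.23 to 9.60 CPM, nearly all from Cd68 and Itgam, with Cd3e at 0 and Ptprc at 2 reads in all. The 6 basal markers summed to 50.7 to 57.3 CPM and 45.2 to 60.9 CPM, mostly from Mylk, which did not pass the test. Of the other basal markers Acta2 rose from 0.105 to 0.789 CPM to 5.48 to 12.4 CPM (adjusted p = 1.57e-04), Trp63, not tested, had 0 to 0.284 CPM and 0.96 to 1.42 CPM, and Krt5 had 1 read in all. The 6 endothelial markers were low throughout (2.26 to 3.98 CPM and 0.681 to 1.89 CPM), with Emcn and Cldn5 at 0. These differences ran along with all those below, and their part in them was not tested. In bulk RNA, fewer cells that express a gene and less of its RNA per cell cannot be told apart.

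All 10 genes of the ATF4 pathway were higher in CD24+ cells, against 23.8% of all genes tested. Their median log2 fold change was 1.57 (range 0.80 to 3.75). Chac1, Atf5 and Trib3 rose most, 13.4-fold, 11.2-fold and 8.83-fold. For 9 of the 10 genes every CD24+ library lay above every CD24- library, as was so for 29.7% of all genes tested. The remaining gene was Vldlr.

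Atf4 itself had 186, 201 and 269 CPM in CD24- replicates 1, 2 and 3 and 809, 557 and 676 CPM in CD24+ replicates 1, 2 and 3. The lowest CD24+ library thus lay far above the highest CD24- library, and the log2 fold change was 1.64 (SE, the standard error, 0.16, adjusted p = 2.03e-05). On distinct read sequences, each taken only once, it stood at 0.50 and did not pass the test (adjusted p = 0.110). A transcript can give only a limited number of distinct sequences, so that this measure by construction compresses the difference of an abundant gene. Each distinct Atf4 sequence was read 2.11 to 2.45 times in CD24- and 3.92 to 7.46 times in CD24+ libraries, against a median over all genes tested of 1.14 to 1.36 times in CD24+ libraries. As ATF4 is controlled mainly at translation, its mRNA level is not a measure of its protein, which was not analysed here. Atf5, a related factor that is controlled in the same way, had 30.5, 32.1 and 66.2 CPM in the CD24- libraries and 604, 323 and 516 CPM in the CD24+ libraries (log2 fold change 3.49, SE 0.31, adjusted p = 1.01e-05). Cebpg and Cebpb, bZIP proteins that can pair with ATF4, rose less, with log2 fold changes of 0.96 and 1.34. Of the reads annotated to Cebpb, 26.5% also matched other genes. Cebpg was the steadiest of the 10 genes in CD24- cells, at 72.0 ± 2.01 CPM, against 141 ± 29.5 CPM in CD24+ cells.

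Trib3, a pseudokinase that is induced by ATF4 and CHOP and restrains both, had 18.6, 16.8 and 21.2 CPM in the CD24- libraries and 234, 95.4 and 174 CPM in the CD24+ libraries. Chac1, an enzyme that breaks down glutathione, had 3.37, 4.17 and 8.80 CPM and 97.9, 51.1 and 70.7 CPM. Both genes were separated widely, although the CD24+ libraries also differed among themselves, replicate 2 being the lowest. Their log2 fold changes were 3.14 (SE 0.29, adjusted p = 1.13e-05) and 3.75 (SE 0.32, adjusted p = 7.57e-06).

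Asns, which makes asparagine and is the classic target of the amino acid arm, had 63.3, 57.9 and 171 CPM in the CD24- libraries and 578, 405 and 476 CPM in the CD24+ libraries. CD24- replicate 3 stood well above the other two but under every CD24+ library. The log2 fold change was 2.32 (SE 0.35, adjusted p = 4.10e-04), and 3.002 without that library. Asns was the only member whose fold change moved by more than 1.5 times when 1 library was left out. Nupr1, a small stress protein of the nucleus, showed 56.3 ± 13.1 and 138 ± 37.0 CPM (log2 fold change 1.29).

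Ddit3, which codes for the pro-apoptotic factor CHOP, had 8.32, 9.48 and 10.7 CPM in the CD24- libraries and 33.5, 19.4 and 29.2 CPM in the CD24+ libraries (log2 fold change 1.504, adjusted p = 1.92e-04). Its 3' end meets that of Mars, a synthetase gene read from the opposite strand, so that the annotated genes overlap in GENCODE M21 (chr10:127290774-127296288 and chr10:127296221-127311786, GRCm38). Only 68.3% of the reads annotated to Ddit3 matched its own transcripts alone and 10.5% matched another gene. On reads of 1 GENCODE gene its log2 fold change was 1.84. Vldlr, a lipoprotein receptor induced by ATF4, was the least separated gene, with 18.2, 17.9 and 12.4 CPM in the CD24- libraries and 33.5, 18.0 and 34.0 CPM in the CD24+ libraries. CD24+ replicate 2 lay within the CD24- range. The call (log2 fold change 0.80, adjusted p = 0.0216) was lost without CD24- replicate 3 (0.63, adjusted p = 0.0582) or CD24+ replicate 1 (0.68, adjusted p = 0.0790). It was also lost without CD24+ replicate 3 (0.61, adjusted p = 0.105) and with median coverage (0.12, adjusted p = 0.190). That estimate adds 10 to each value, which by construction compresses the fold change of a gene with low coverage.

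**Figure D1:**
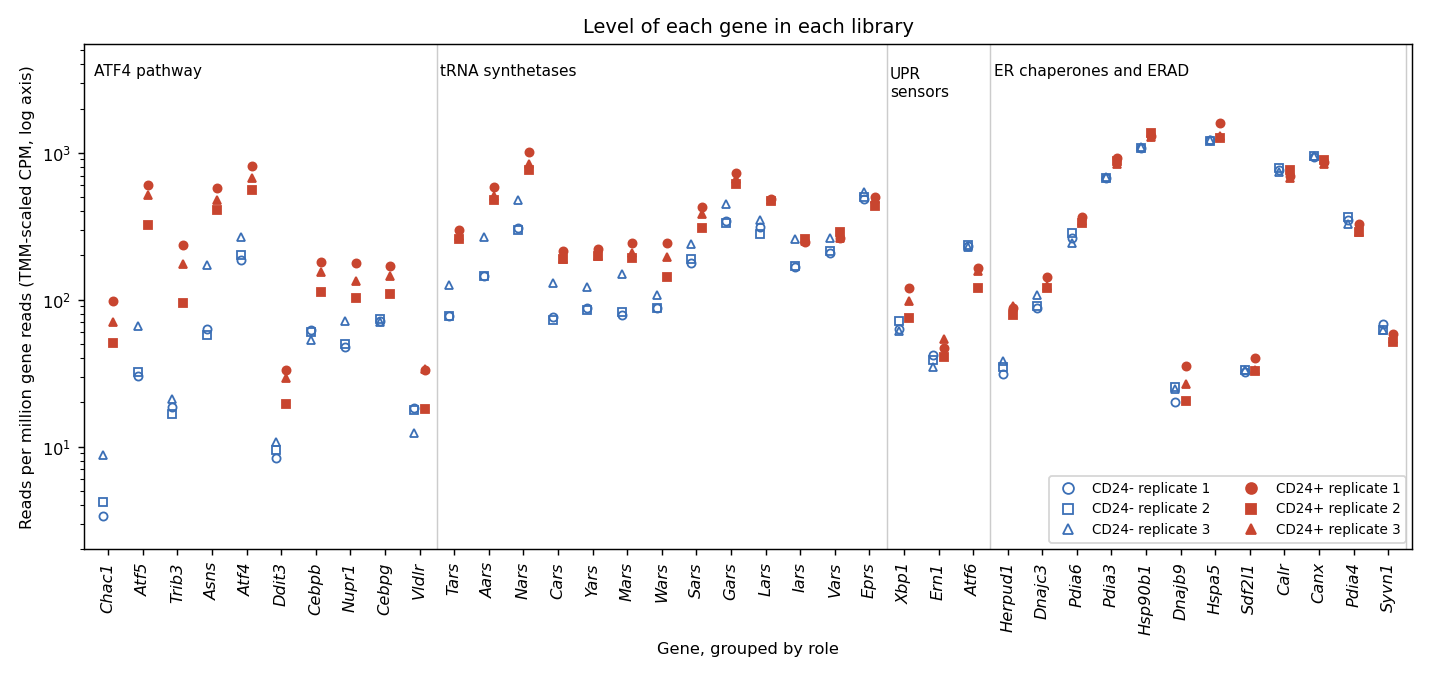
Level of each of the 38 genes in each of the 6 libraries, in TMM-scaled CPM on a log axis, with genes grouped by role and ordered by fold change within a role. Open blue symbols are CD24- and filled red symbols CD24+ libraries. The ATF4 genes and most synthetases are separated by group, Chac1 from 3.37 to 8.80 against 51.1 to 97.9 CPM, whereas most ER chaperones lie close together.

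Among the synthetases, which join each amino acid to its transfer RNA, 10 of 13 genes were higher in CD24+ cells, against 23.8% of all genes tested. None was lower and 3 did not pass the test. Their median log2 fold change was 1.04. The 10 that rose were those for threonine (Tars), alanine (Aars), asparagine (Nars), cysteine (Cars), tyrosine (Yars), methionine (Mars), tryptophan (Wars), serine (Sars), glycine (Gars) and leucine (Lars). For each of them all CD24+ libraries lay above all CD24- libraries, as was so for 29.7% of all genes tested.

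Tars and Aars rose most, and without CD24- replicate 3 their order turned (log2 fold changes 1.83 and 1.86). Tars had 77.5, 78.0 and 126 CPM in the CD24- libraries and 298, 257 and 273 CPM in the CD24+ libraries (log2 fold change 1.56, SE 0.17, adjusted p = 3.84e-05). Aars had 144, 145 and 266 CPM in the CD24- libraries and 581, 479 and 510 CPM in the CD24+ libraries (1.501, SE 0.21, adjusted p = 2.45e-04). Nars had 307, 300 and 474 CPM and 1005, 764 and 843 CPM (1.27, SE 0.17, adjusted p = 1.92e-04). In each of the 3 genes CD24- replicate 3 was the highest of its group by a wide gap, yet remained under the lowest CD24+ library. The log2 fold changes of Cars, Yars, Mars and Wars were 1.08, 1.07, 1.05 and 1.04, and those of Sars, Gars and Lars were 0.88, 0.83 and 0.61. Of the reads annotated to Lars, 28.9% also matched other genes, and its log2 fold change was 0.77 on reads of 1 GENCODE gene. On distinct sequences, a measure with the ceiling described for Atf4, Nars (0.485), Sars (0.38), Lars (0.37) and Gars (0.29) did not pass (adjusted p from 0.0544 to 0.244). Their sequences were read 2.21 to 5.7 times each in CD24+ libraries.

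The 3 synthetases that did not pass the test were Iars (isoleucine), Vars (valine) and Eprs, which charges both glutamate and proline. Iars had 167, 169 and 257 CPM in the CD24- libraries and 248, 259 and 250 CPM in the CD24+ libraries. Vars had 208, 215 and 265 CPM and 261, 288 and 262 CPM. In both, CD24- replicate 3 was at the level of the CD24+ libraries, and without it both passed as higher, with log2 fold changes of 0.59 (adjusted p = 1.71e-04) against 0.35 (adjusted p = 0.0767) for Iars and 0.35 (adjusted p = 0.00623) against 0.24 (adjusted p = 0.0825) for Vars. Iars also passed with the replicate number as a block (0.38, adjusted p = 0.0355) and with no filter on low counts (0.35, adjusted p = 0.0436). Eprs had 487, 503 and 544 CPM and 498, 435 and 481 CPM, and its log2 fold change was -0.12 (SE 0.08, adjusted p = 0.278). Under each library left out Eprs did not pass.

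The other cytosolic synthetase genes and subunits of their complex were listed apart from the members. Of these 11 none rose and 4 fell, against 23.8% and 22.3% of all genes tested. The median log2 fold change was -0.16. The 4 calls became 1 on distinct sequences. Both lists were drawn up with earlier results of these data known, so the contrast can reflect which genes were placed on which list. Eef1e1, a scaffold subunit of the multisynthetase complex, fell most (log2 fold change -1.30, adjusted p = 1.10e-05), from 86.6, 89.4 and 108 CPM to 43.4, 38.8 and 34.2 CPM. Kars, the lysine enzyme, had 223, 246 and 206 CPM and 168, 184 and 163 CPM (-0.39, adjusted p = 0.00504). The remaining calls, named after their values were seen, were Dars (-0.38) and Farsa (-0.35). Of 16 mitochondrial synthetases tested 2 rose and 4 fell, with a median of -0.04, against 46.1% of all genes called in either direction. The 6 calls became 3 with the replicate number as a block or without CD24- replicate 1. Ears2 (0.76) and Tars2 (0.26) were the calls above 0, and Iars2 (-0.62) and Vars2 (-0.51) had the largest falls.

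Since members of the first 2 classes are known ATF4 targets, promoters were searched for the C/EBP-ATF response element (CARE), spelled TGATGNAA, on both strands of RefSeq windows from 250 bases before to 50 bases after a transcript start (GRCm38.p6). The element was present in 3.97% of all 32851 windows and in at least 1 window of 4.51% of all genes. Of the 10 ATF4 pathway genes 5 held it (Trib3, Chac1, Asns, Nupr1 and Vldlr), as did 5 of the 7 synthetases with a window (Aars, Gars, Iars, Tars and Yars) and none of 9 other cytosolic and 14 mitochondrial synthetases. Of 27 other ATF4 targets with a window 7 held it, among them Atf3, which was lower in CD24+ cells. No window was given for Cars, Lars, Mars, Nars, Vars and Wars. Matches of 5 genes before the start are shown with the element in capitals, the reverse strand reading TTNCATCA, because these genes cover both classes and the range of the change. They lay 193 bases before the start in Chac1, 110 in Nupr1, 30 in Gars, 23 in Asns and 15 in Tars, counted to the first base of the element.
Chac1, chr2:119351034-119351071, plus strand: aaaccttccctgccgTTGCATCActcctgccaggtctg
Asns, chr6:7693214-7693243, minus strand: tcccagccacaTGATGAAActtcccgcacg
Nupr1, chr7:126625562-126625591, minus strand: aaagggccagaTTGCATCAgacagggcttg
Tars, chr15:11399659-11399688, minus strand: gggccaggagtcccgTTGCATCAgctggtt
Gars, chr6:55037956-55037993, plus strand: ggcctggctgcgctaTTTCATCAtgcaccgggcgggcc

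In GENCODE M21 the stretches of Chac1 and Gars lie outside annotated genes, while those of Asns and Nupr1 lie in an exon of the same gene, that of a transcript that starts further upstream. In Tars the last 7 bases shown lie in its first annotated exon and the element itself lies outside annotated genes. Chac1, Nupr1 and Tars carried the same 8 letters, TTGCATCA on the strand of the gene. Their log2 fold changes were 3.75, 1.29 and 1.56, whereas Iars, whose match lay 8 bases into the transcript, did not pass the test (0.35). A match in a window is a description of these letters and does not show that ATF4 bound there. As members of these classes were known ATF4 targets beforehand, a share above that of all genes is no independent result.

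**Figure D2:**
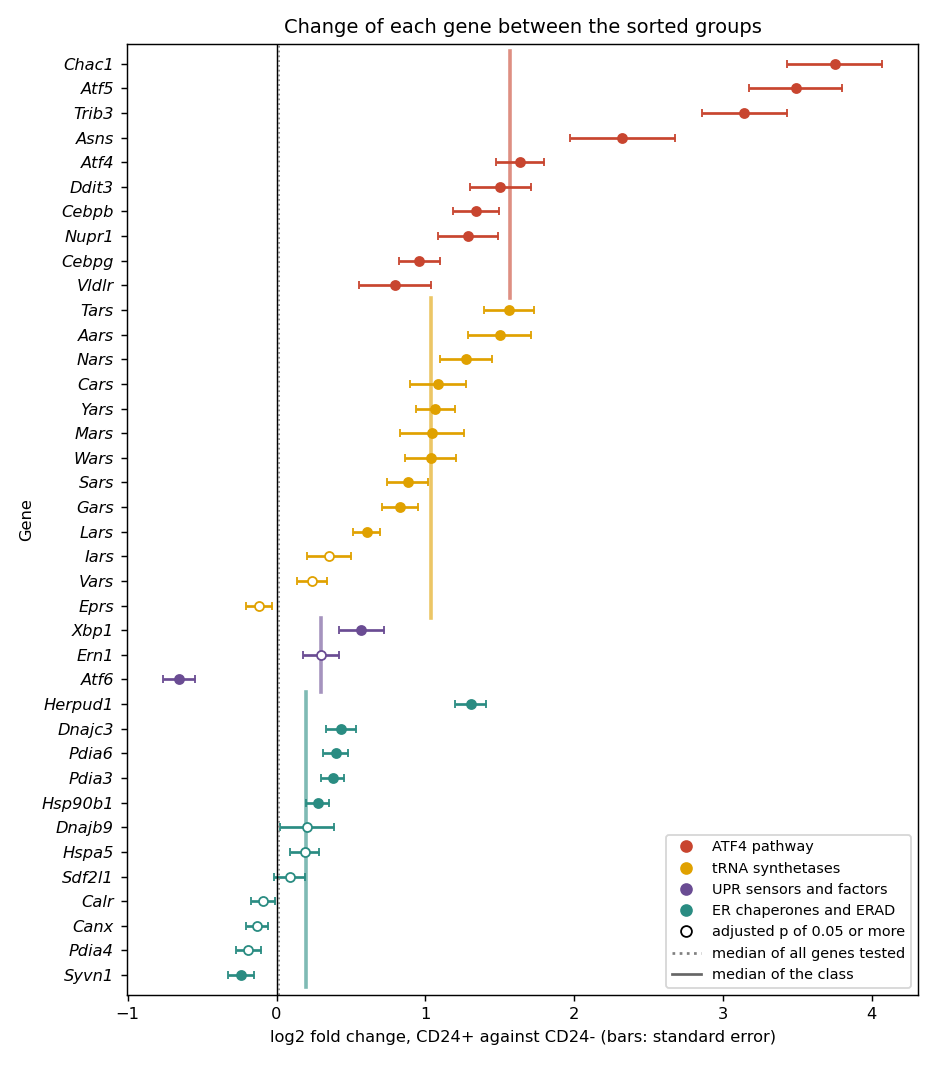
Fold change of each of the 38 genes between CD24+ and CD24- cells on the log2 scale, with standard errors from edgeR; filled symbols passed an adjusted p of 0.05. Solid lines mark class medians (1.57 for the ATF4 pathway, 1.04 for synthetases, 0.30 for UPR sensors and factors, 0.20 for chaperones and ERAD) and the dotted line the median of all genes, 0.02.

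Of the 3 sensors and factors of the UPR, 1 rose, 1 fell and 1 did not pass the test. Xbp1 had 63.6, 71.6 and 61.1 CPM in the CD24- libraries and 120, 75.2 and 98.1 CPM in the CD24+ libraries, with a log2 fold change of 0.57 (SE 0.15, adjusted p = 0.0110). On distinct sequences, each read 1.35 to 1.47 times in CD24- and 1.5 to 2.13 times in CD24+ libraries, Xbp1 did not pass (0.33, adjusted p = 0.167). Atf6 had 233, 237 and 227 CPM and 164, 121 and 158 CPM, and fell by 0.66 on the log2 scale (SE 0.11, adjusted p = 7.99e-04). All 3 CD24+ libraries lay above the CD24- libraries for Xbp1 and under them for Atf6. Ern1, the gene of the kinase and nuclease IRE1, had 41.9, 38.7 and 34.6 CPM and 46.6, 40.9 and 54.0 CPM and did not pass the test (0.30, adjusted p = 0.0702), but passed without CD24+ replicate 2 (0.39, adjusted p = 0.0257) and on distinct sequences (0.34, adjusted p = 0.0439).

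Xbp1 is itself the substrate of IRE1, and its 26-base intron can be read in these counts. The intron was placed at chr11:5524279-5524304 (GRCm38), within exon 4 of the annotated transcript, as the only pair of IRE1 sites (letters CNGCAGN) 26 bases apart whose removal lengthens the reading frame, from 267 to 371 codons. It is shown in capitals with 20 bases of coding sequence on each side (chr11:5524259-5524324, plus strand), since the reads counted below overlap it.
Xbp1: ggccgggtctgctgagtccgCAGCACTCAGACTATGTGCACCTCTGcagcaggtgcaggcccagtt
The most frequent read sequence over the whole intron was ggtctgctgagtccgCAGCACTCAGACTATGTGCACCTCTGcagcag, with 13 reads in all libraries.

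Only reads of the unspliced form match the genome exactly, while reads across the removed intron were lost in the authors' mapping, and 0 were found. The number of reads over the intron (12 to 47 a library) per possible start position, divided by that in the exon sequence within 200 bases on each side, was 0.581, 0.621 and 0.562 in CD24- cells and 0.701, 0.752 and 0.544 in CD24+ cells. The groups overlapped. The log2 ratio differed by 0.17 between group means, with p = 0.4 in a two-sided exact permutation test, whose smallest possible p is 0.1 with 3 libraries against 3. The difference was -0.02 when an overlap of at least 10 bases with the intron was asked for. Reads in the flanks and over the intron also vary with position along the mRNA, so that the ratio compares libraries and is not the unspliced share.

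**Figure D3:**
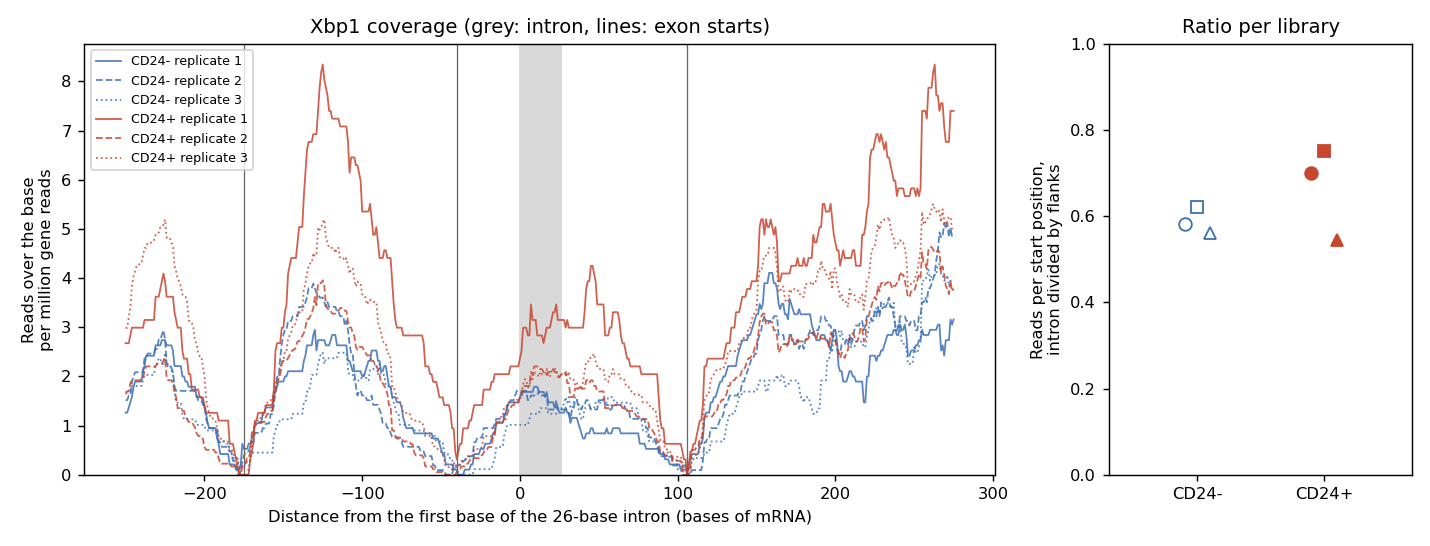
Left, coverage of each base of Xbp1 mRNA, scaled to the gene reads of the library, by distance from the first base of the 26-base intron (grey band), for each library, with vertical lines at exon starts where reads across junctions are missing. Right, reads per start position over the intron divided by those in the flanks, 0.562 to 0.621 in CD24- and 0.544 to 0.752 in CD24+ libraries.

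ER chaperones and ERAD factors changed less. Of 12 genes, 5 rose, 1 fell and 6 did not pass the test, and the median log2 fold change was 0.20. The share of calls in either direction, 6 of 12, was close to the 46.1% of all genes tested. By direction, 5 of 12 were higher against 23.8% of all genes, and 1 was lower against 22.3%. For 6 of the 12 every CD24+ library lay above every CD24- library, against 29.7% of all genes tested.

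Hspa5 (BiP), the main Hsp70 chaperone of the ER and the usual marker of the UPR, had 1214, 1209 and 1214 CPM in the CD24- libraries and 1585, 1262 and 1302 CPM in the CD24+ libraries. Its CD24+ values lay above the CD24- values, but by 1.14-fold in the mean and led by replicate 1, and it did not pass the test (log2 fold change 0.19, SE 0.10, adjusted p = 0.139). Without CD24+ replicate 1 the log2 fold change was 0.07. On distinct sequences, a measure with the ceiling described for Atf4, the log2 fold change was -0.19. Each distinct Hspa5 sequence was read 3.94 to 7.49 times, and the cause of the change of sign was not tested. Hsp90b1 (GRP94), the ER member of the Hsp90 family, had 1080, 1084 and 1091 CPM and 1304, 1358 and 1278 CPM (0.28, adjusted p = 0.0124). That call was lost without CD24- replicate 1 (0.27, adjusted p = 0.0690) or CD24- replicate 2 (0.27, adjusted p = 0.0600). It was also lost with the replicate number as a block (0.27, adjusted p = 0.0501) and with median coverage (0.096, adjusted p = 0.283). Of its reads 21.9% also matched other genes.

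The disulfide isomerases, which form and rearrange disulfide bonds in the ER, were split. Pdia3 had 678, 673 and 679 CPM in the CD24- libraries and 916, 884 and 835 CPM in the CD24+ libraries (log2 fold change 0.38, adjusted p = 0.00241). Pdia6 rose by about as much (0.40, adjusted p = 0.00309). Distinct sequences of Pdia6 and Pdia3 were read up to 4.53 and 9.05 times each. On distinct sequences, a measure with the ceiling described for Atf4, their log2 fold changes were 0.073 and -0.009. Pdia4, in turn, had 347, 366 and 328 CPM and 329, 291 and 291 CPM and did not pass (-0.19, adjusted p = 0.0873). Without CD24+ replicate 1 Pdia4 passed as lower (-0.26, adjusted p = 0.0248), as it did with median coverage (-0.24, adjusted p = 0.0109). The lectin chaperones of glycoproteins, Calr and Canx, did not pass either, with log2 fold changes of -0.09 and -0.13, though Canx passed as lower with median coverage (-0.25, adjusted p = 0.00411). Dnajc3, a co-chaperone of BiP, rose (0.43, adjusted p = 0.00548), while Dnajb9 (ERdj4), a co-chaperone that is a common target of XBP1, stood at 23.4 ± 2.77 and 27.6 ± 7.37 CPM (0.21, adjusted p = 0.376) and Sdf2l1 at 32.9 ± 0.617 and 35.3 ± 4.17 CPM (0.09, adjusted p = 0.519). Sdf2l1 stood at -0.012 on distinct sequences and at -0.008 without CD24+ replicate 1.

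Herpud1, a membrane protein of the ERAD machinery, stood apart from the other 11 genes of its class. It had 31.3, 34.8 and 38.0 CPM in the CD24- libraries and 88.1, 78.4 and 90.6 CPM in the CD24+ libraries, a rise of 2.47-fold (log2 fold change 1.30, SE 0.10, adjusted p = 3.94e-06). Syvn1 (HRD1), the ubiquitin ligase of the same machinery, had 68.6, 61.9 and 62.7 CPM and 58.4, 51.7 and 54.2 CPM. Its fall (-0.24, adjusted p = 0.0476) was lost without CD24- replicate 1 (-0.19, adjusted p = 0.193), CD24- replicate 2 (-0.27, adjusted p = 0.0777), CD24+ replicate 2 (-0.21, adjusted p = 0.118) or CD24+ replicate 3 (-0.24, adjusted p = 0.112), and also with DESeq2 (-0.25, adjusted p = 0.0552), the replicate number as a block (-0.23, adjusted p = 0.1001) and median coverage (-0.095, adjusted p = 0.217). It was further lost with each distinct sequence counted once, with no filter on low counts, on reads of 1 GENCODE gene and after thinning to the shallowest library (adjusted p from 0.0508 to 0.196).

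The same windows were searched for the ER stress response element (ERSE) (the letters CCAAT and, after any 9 bases, CCACG) and for ERSE-II (ATTGG and, after any 1 base, CCACG) on both strands, the sites through which ATF6 and XBP1 are known to act. ERSE was found in 0.119% of all windows and in at least 1 window of 0.137% of all genes. It was found in 7 of the 12 chaperone and ERAD genes (Hspa5, Hsp90b1, Dnajc3, Pdia6, Calr, Canx and Syvn1), and in none of the 10 ATF4 pathway genes or the 7 synthetases with a window. ERSE-II was found in 0.0365% of all windows and 0.0444% of all genes. Among the members it was found in Herpud1 alone, which was also the only one of the 12 with a CARE. The log2 fold changes of the 7 genes with an ERSE lay between -0.24 (Syvn1) and 0.43 (Dnajc3). Shown are the elements of a gene that rose (Pdia6), of Hspa5 and Canx, which did not pass, and of Herpud1, whose first capitals are the CARE and whose second are ERSE-II.
Pdia6, chr12:17266476-17266524, plus strand: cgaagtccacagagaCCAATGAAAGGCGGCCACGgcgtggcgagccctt
Hspa5, chr2:34772020-34772048, plus strand: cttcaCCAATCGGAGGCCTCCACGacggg
Canx, chr11:50325785-50325833, minus strand: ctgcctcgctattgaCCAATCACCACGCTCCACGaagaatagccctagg
Herpud1, chr8:94386302-94386402, plus strand: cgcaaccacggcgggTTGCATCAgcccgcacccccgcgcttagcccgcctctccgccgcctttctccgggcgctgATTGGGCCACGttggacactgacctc

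The stretches of Pdia6 and Canx lie outside genes annotated in GENCODE M21, that of Hspa5 lies in an exon of an Hspa5 transcript that starts further upstream, and that of Herpud1 lies in an intron of Gm15890. In Herpud1 the CARE began 112 bases and the ERSE-II 52 bases before the start. No ERSE match says only that these letters were not in the window. As ATF6 and XBP1 are known to act on genes of this class, the shares found among them are no independent result.

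The ATF4 and synthetase genes, taken as 1 class of 23, were compared with the 12 chaperone and ERAD genes within each library. The median over a class of log2 CPM, each gene taken relative to its mean in CD24- cells, was higher for the 23 genes than for the 12 by 1.04, 0.92 and 0.92 in CD24+ replicates 1, 2 and 3. In CD24- replicates 1, 2 and 3 the difference was -0.17, -0.17 and 0.31. All CD24+ libraries thus lay above all CD24- libraries, and CD24- replicate 3 stood between. The difference of the medians of fitted log2 fold changes was 0.88. As these genes were chosen with results known, no test was made of the difference.

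Within each group the libraries differed in the same way over many of these genes. CD24- replicate 3 was the highest of the CD24- libraries for 13 of 13 synthetases and 7 of 10 ATF4 pathway genes, against 40.0% of all genes tested and 5 of the 12 chaperone and ERAD genes. CD24- replicate 3 was also the highest for 23 of 30 other ATF4 targets. The same was so for 19 of 26 heat shock and chaperonin genes, 8 of 11 other cytosolic synthetase genes, 10 of 16 eIF2 genes and 11 of 19 other ERAD genes. Within the CD24+ group, replicate 2 was the lowest for 10 of 10 ATF4 pathway genes and 9 of 13 synthetases, against 35.4% of all genes and 7 of the 12 chaperone and ERAD genes. CD24+ libraries stood in the order replicate 1, 3 and 2 from high to low for 9 of 10 and 9 of 13, against 23.4% of all genes and 6 of 12 chaperone and ERAD genes. Of 30 other ATF4 targets, CD24+ replicate 2 was the lowest for 27 and this order held for 22. This order was also that of 19 of 33 other ER folding and 11 of 19 other ERAD genes. The class medians give the size of it. In CD24- replicates 1, 2 and 3 that of the synthetases was -0.16, -0.19 and 0.33, and in the CD24+ replicates it was 1.20, 0.71 and 1.02. For the ATF4 pathway they were -0.19, -0.13 and 0.24, and 1.84, 1.18 and 1.61. CD24- replicates 1 and 2 were the closest pair of libraries over all genes as well, chi-square over degrees of freedom being 1.75 against at least 9.69 for the other pairs of 1 group. They differed by more than sampling noise and were kept as separate samples. This check cannot tell separate plates from separate libraries of 1 plate, and in the latter case the CD24- SDs and p-values would be too small. CD24+ replicate 1 was the shallowest library and CD24+ replicates 2 and 3 the deepest, and the part of depth in this order was not tested.

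**Figure D4:**
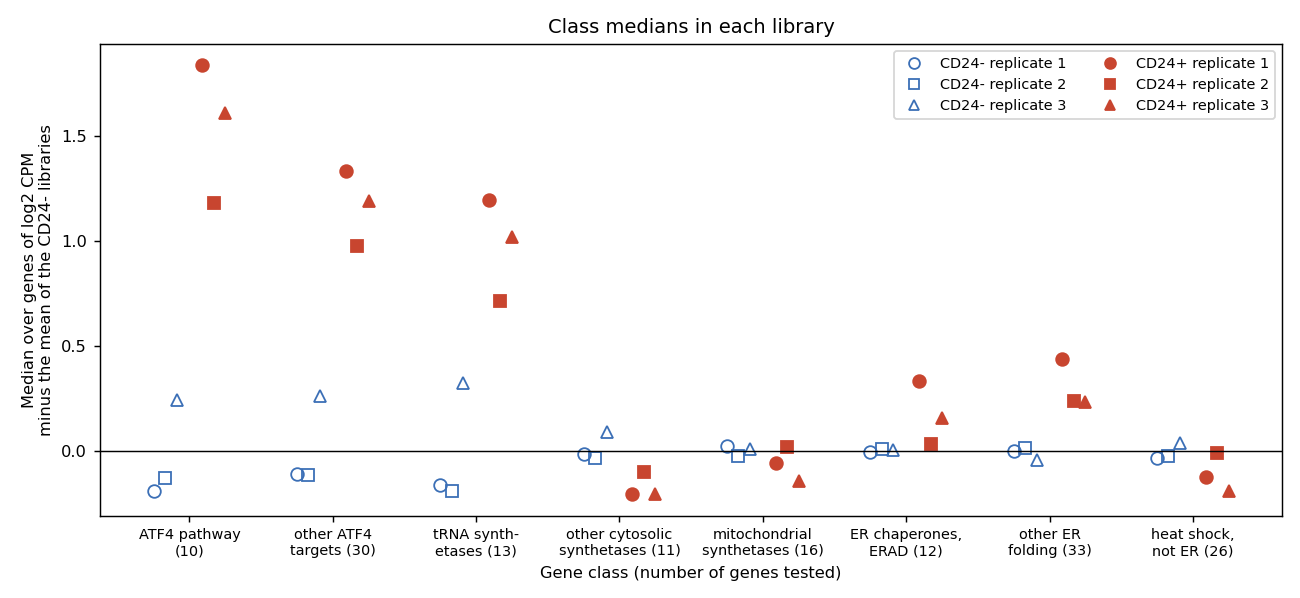
Median over the genes of a class of log2 CPM minus the gene's mean in CD24- libraries, for each library (symbols as in the plot of levels) and for 8 gene classes. The ATF4 pathway (1.18 to 1.84 in CD24+), other ATF4 targets (0.98 to 1.33) and the 13 synthetases (0.71 to 1.20) stand above the CD24- libraries, and CD24- replicate 3 is above the other two in all 3 classes, whereas the other classes shown stay between -0.21 and 0.44. The UPR sensors and factors, which are not shown, reached 0.49 in CD24+ replicate 3.

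Per length of mappable exon (CPM per kb, from reads that match 1 gene), a scale that allows genes to be compared, the order of levels changed between the groups. In CD24- cells the highest members were chaperones, Hsp90b1 at 437 ± 4.19, Calr at 432 ± 13.2 and Hspa5 at 351 ± 5.49 CPM per kb, and Hsp90b1 and Calr did not differ beyond their spread. Atf4 stood at 130 ± 29.1. In CD24+ cells Hsp90b1 was again the highest (538 ± 17.1), but Atf4 (426 ± 80.0), Nars (417 ± 60.7) and Gars (407 ± 38.1) lay among Hspa5 (419 ± 53.8), Calr (408 ± 25.7) and Pdia3 (403 ± 19.0), and these 6 did not differ beyond their spread. The lowest members in CD24- cells were Vldlr (2.95 ± 0.641) and Chac1 (3.56 ± 1.92). In CD24+ cells Vldlr remained low (5.92 ± 1.82), while Chac1 (48.0 ± 15.6) had a spread that took in the mean of Herpud1 (53.6 ± 4.12). Nars, Gars and Eprs were the most abundant synthetases per length in CD24- cells, at 171 ± 46.5, 226 ± 38.0 and 144 ± 8.23, and in CD24+ cells Eprs (134 ± 9.53) lay with Aars (147 ± 15.2) and Lars (132 ± 2.52).

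**Figure D5:**
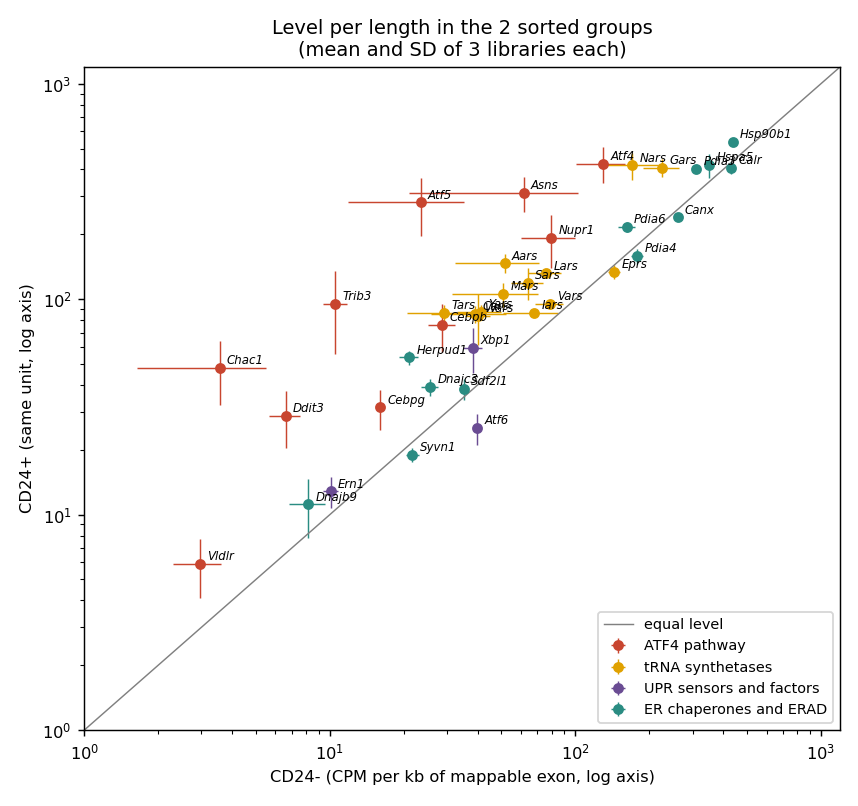
Level of each of the 38 genes per length, as CPM per kb of mappable exon, in CD24- (horizontal) and CD24+ cells (vertical), both on log axes, with the mean and SD of 3 libraries. ATF4 genes lie above the line of equal level, Atf4 at 130 against 426 and Chac1 at 3.56 against 48.0, while of the chaperone and ERAD class Calr (432 against 408) lies near it and Dnajc3 (25.6 against 39.2) and Herpud1 (21.02 against 53.6) above it.

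Further genes of the pathways were taken from lists of known members, drawn up with earlier results of these data known. Of 33 other ATF4 targets, 30 were tested and 25 rose, against 23.8% of all genes tested. Their median log2 fold change was 1.12. Aldh1l2, an enzyme of mitochondrial folate metabolism, had 6.84, 4.36 and 11.2 CPM in the CD24- libraries and 212, 121 and 194 CPM in the CD24+ libraries (4.57, adjusted p = 1.10e-06). Pycr1, which makes proline, had 2.63, 2.65 and 5.41 CPM and 32.4, 17.2 and 27.2 CPM (2.83). In both the groups were far apart. The 3 genes of the list that did not pass the test, named after their values were seen, were Eif4ebp1 (0.20), Mthfd1l (0.17) and Slc7a3 (-0.38).

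The genes of the list that fell were both stress factors. Atf3, a bZIP factor that ATF4 induces, had 55.0, 65.8 and 38.6 CPM in the CD24- libraries and 10.1, 8.76 and 11.9 CPM in the CD24+ libraries and fell by 2.37 on the log2 scale (adjusted p = 6.27e-06). Ppp1r15a (GADD34), the phosphatase subunit that reverses eIF2α phosphorylation, had 172, 199 and 174 CPM and 90.4, 71.8 and 94.6 CPM and fell by 1.09 (adjusted p = 2.81e-05). Their CD24+ libraries lay under all CD24- libraries, the opposite of Ddit3 and Trib3 in the same RNA.

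Of 16 genes of eIF2, its kinases, its exchange factor and related regulators, 2 rose and 4 fell (median -0.16). Over all genes tested 46.1% were called in either direction. On distinct sequences the calls in this list became 2. Eif2s2, the β subunit of eIF2, rose from 226, 224 and 296 CPM to 595, 489 and 490 CPM (1.08, adjusted p = 6.61e-05), and Eif2b2 rose by 0.47. Of the called genes Eif2a (-0.44), the gene of eIF2A and not of eIF2α, fell most, followed by Eif2b1 (-0.32). Named after their values were seen, Eif2s3x fell as much as Eif2b1 (-0.32) and Eif2s1, the gene of eIF2α, did not pass (-0.13, adjusted p = 0.197). Among the kinases, named after their values were seen, Eif2ak3 (PERK) fell by 0.28 (adjusted p = 0.0293), and Eif2ak1 (-0.19), Eif2ak2 (-0.33) and Eif2ak4 (GCN2, 0.21) did not pass. These are mRNA levels, and the phosphorylation of eIF2α was not analysed here.

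Of 33 other ER folding and translocation genes tested, 15 were higher and 5 lower, against 23.8% and 22.3% of all genes tested. The median was 0.31. Their calls became 7 on distinct sequences. For 21 of the 33 every CD24+ library lay above every CD24- library, against 29.7% of all genes tested. Serp1, a stress protein bound to the translocon, rose most, from 164, 161 and 168 CPM to 502, 285 and 361 CPM (1.22), followed by Sec61b (0.72), a channel subunit. Ero1lb (-0.65), an oxidase, and Uggt1 (-0.58), the folding sensor of glycoproteins, fell most. Of 19 other ERAD genes tested 5 rose and 3 fell (median 0.12), against 46.1% of all genes called in either direction. The 8 calls became 5 with median coverage or without CD24- replicate 2. Derl1 (0.69) and Vimp (0.65) were highest and Edem1 (-0.65) and Edem3 (-0.32) lowest. Heat shock chaperones and chaperonins outside the ER were examined as a further class. Of 26, 4 rose and 8 fell (median -0.10), a share of calls close to the 46.1% of all genes tested. The calls include the mitochondrial chaperonins Hspe1 (0.28) and Hspd1 (-0.28), named after their values were seen. The 12 calls became 4 with median coverage, 7 with the replicate number as a block, 5 without CD24- replicate 2, 6 without CD24- replicate 1, CD24+ replicate 1 or CD24+ replicate 3, and 3 on distinct sequences. The inducible Hsp70 genes Hspa1b (1.60) and Hspa1a (1.43), near-identical copies whose reads can be split between them, rose, and Hspb8 (-0.54) and Hspa8 (-0.37) fell.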

How the data were processed

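Per the paper, the authors trimmed single-end reads of mRNA libraries to 47 nt, collapsed identical reads, kept those with an exact match in the mouse genome and gave each 1 annotation. The deposited values are raw read counts of each distinct sequence, 1 file a library. The labels name build mm9, and the mapping tool is not given in the sources used here. An exact match loses reads across exon junctions, and the library kit does not mark strand. The counts were summed per symbol, and repeats, small RNA and reads with no annotation were left out.

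Genes were tested with edgeR 4.0.16 in R 4.3.3 (filterByExpr, TMM, quasi-likelihood F test, p adjusted by Benjamini-Hochberg over all 11125 genes, threshold 0.05). The method was also run on simulated counts. These had the same dispersion for all genes and no shifts shared by genes of a library, so they do not vouch for p-values under such shifts. The standard error is the log2 fold change over the root of F. Members and lists were chosen with earlier results of these data known. Named genes are Cd24a, every member, at most 2 called genes with the largest and 2 with the smallest change per further list (mean log2 CPM of at least 3), and cell type markers. Genes beyond this rule are said in the text to have been named after their values were seen, or are listed as holders of a promoter motif. The promoter search and its motifs were added later. Some items are not reported here. Coordinates and sequences come from an own match to GENCODE M21 and RefSeq (GRCm38), not from the authors' coordinates. A level per length counts reads that match 1 gene per kb of start positions unique to it. The intron of Xbp1 was to be tested only if annotated. GENCODE M21 does not annotate it, so it was placed by its sequence. Alternatives were DESeq2 1.42.0, no TMM, no filter, at least 1 CPM in 3 libraries, each distinct sequence once, reads of 1 GENCODE gene, median coverage with quantile normalization and a regularizer of 10 (limma 3.58.1), the replicate number as a block, thinning to 6491833 gene reads, and each library left out. A call without 1 library assumes that the rest vary alike.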

Additional observations from a re-analysis of the deposited data

How the results depend on the processing

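All 10 ATF4 pathway genes were higher in each alternative, and 9 or 10 of them passed. The difference between the medians of the ATF4 and synthetase genes and of the chaperones (0.88) was 0.78 with each distinct sequence counted once, 0.68 with median coverage and 0.76 to 1.19 with 1 library left out. Counting each distinct sequence once has by construction a ceiling for abundant genes, such as Hsp90b1, whose sequences were read 3.9 to 8.2 times each in CD24+ libraries. For such genes, calls lost or signs changed there cannot be told apart from an effect of this ceiling. Sequences of Xbp1 and Sdf2l1 were read at most 2.13 and 1.69 times each in CD24+ libraries, nearer the median of all genes tested (1.14 to 1.36). On distinct sequences, calls became 2 for chaperones and ERAD (6 otherwise), 6 for synthetases (10), 2 for eIF2 genes (6), 7 for other ER folding genes (20), 5 for other ERAD genes (8), 1 for other cytosolic synthetases (4) and 3 for heat shock genes (12). Atf4 (0.50, adjusted p = 0.110), Xbp1, Pdia6, Gars, Lars, Nars and Sars no longer passed there, and Hspa5 (-0.19), Hsp90b1 (-0.081), Pdia3 (-0.009) and Sdf2l1 (-0.012) changed sign. With 1 library left out Sdf2l1 ranged from -0.008 to 0.131. Median coverage called 3174 of 9027 genes (5130 of 11125 otherwise), 5 other ERAD genes and 4 heat shock genes. It lost Vldlr (0.12), Hsp90b1 (0.10) and Syvn1, and called Pdia4 (-0.24) and Canx (-0.25) lower. For genes with low coverage, such as Vldlr, a call lost there cannot be told apart from an effect of the added regularizer. With 1 library left out, calls ranged from 4069 to 5358 over all genes, 5 to 8 for other ERAD genes, 3 to 7 for mitochondrial synthetases and 5 to 12 for heat shock genes. The Xbp1 intron difference was -0.02 (p = 1.0, exact permutation test) with an overlap of 10 bases and 0.07 to 0.30 with 1 library left out. The replicate numbers did not pair the libraries (correlations of deviations 0.01, -0.25 and -0.31). The replicate block called 4493 genes, 3 mitochondrial synthetases (6 without it) and 7 heat shock genes (12 without it), and changed the calls of Hsp90b1, Syvn1 and Iars among the members. The cause of the shifts listed here was not tested. The Xbp1 ratio rests on as few as 12 reads in a library.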
